A study of Mus musculus with 8 samples.

Results

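Heat shock proteins are chaperones: they bind unfolded or partly folded proteins, prevent them from clumping and help them reach or regain their shape. The 10 genes described here are Hspa8, Hspa4, Hsph1 and Dnajb1 of the cytosolic HSP70 machine, Hsp90aa1 and Hsp90ab1, the cytosolic HSP90 proteins, Hspa9, Hspd1 and Hspe1, which fold proteins inside mitochondria, and Hsf1, the transcription factor that switches on the heat shock genes. They were taken by symbol, and each of the 10 symbols had an entry of its own among the 41730 genes and other features of the deposited count table. All 10 passed the filter on low counts, as did 12162 entries of the table in all.

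RNA was measured in 8 samples of OT-I CD8+ T cells. OT-I mice carry a transgenic T cell receptor for the ovalbumin peptide SIINFEKL, so nearly all their CD8+ T cells can answer the same antigen. In both groups the T cells were cultured together with peptide-loaded dendritic cells grown from mouse bone marrow and then sorted by flow cytometry. The control group (4 libraries, replicates 1 to 4) received the solvent DMSO, and the RGX-104 group (4 libraries, replicates 5 to 8) received RGX-104 at 2 µM. This drug activates LXR, the liver X receptors, which sense oxidised cholesterol and act on genes in the nucleus. The labels give no age, sex or further allele, no length of culture, and do not tell whether each library had a culture or animal of its own. Each p-value therefore measures the spread among these 8 samples alone, which may be technical. The comparison asks how T cell RNA differs between cultures with and without the drug.

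In resting cells the cytosolic chaperones hold HSF1 inactive. Unfolded protein draws them away, HSF1 is released, and it binds repeats of the unit GAA and its reverse TTC in front of heat shock genes. A T cell that answers antigen grows and makes protein at a high rate, and HSP90 and HSP70 are known to be abundant in such cells. Mitochondrial chaperones answer stress in their own compartment, in part through the transcription factors ATF4, ATF5 and CHOP (encoded by Ddit3).

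The libraries held 13144704 to 15966972 counts each. The LXR target Abca1, a cholesterol exporter, was at 8.13 ± 0.569 CPM in control and 85.2 ± 5.42 in RGX-104 libraries (CPM, counts scaled to a common library size by TMM; mean ± SD, n = 4 per group), without overlap. Over all tested genes, edgeR called 324 of 12162 (2.66%) at an adjusted p under 0.05, 108 of them higher (0.888%) and 216 lower (1.78%) in RGX-104, and the median log2 fold change was 0.003. The sorted cells carried CD8 T cell transcripts. Markers of that type summed to 1799 to 1841 CPM in control and 2140 to 2235 in RGX-104, with 4 of 9 tested markers higher and none lower, while Cd2 was listed at 0 in all libraries. Dendritic cell markers summed to 587 to 655 CPM in control and 577 to 677 in RGX-104, most of it Ccr7, which T cells also express. Of 16 such markers H2-Aa, H2-Ab1 and H2-Eb1 were listed at 0, Cd74 was at 6.52 and 5.58 CPM, and none of 10 tested was called by edgeR. Of these 10, 3 had an unadjusted p under 0.05 (against 13.8% of all tested genes), all with lower means in RGX-104. The log2 fold change was positive for 4 (Itgax, Ciita, Ccr7 and Cst3) and negative for 6, with a median of -0.26. Ccl22 was at 3.66 and 1.61 CPM, Fscn1 at 4.23 and 2.37, and Batf3 at 72.0 and 58.6, in control and RGX-104. The macrophage and monocyte list summed to 55.6 to 62.4 CPM in control and 60.9 to 67.9 in RGX-104. The part of these marker levels in the heat shock results was not tested.

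The sequence shared by the start regions of Hspd1 and Hspe1 shows how a heat shock gene is built. The genes lie head to head on chromosome 1. The RefSeq promoter windows used here (build GRCm38.p6, 250 bases before to 50 after a start) give Hspe1 a start at 55088148 and Hspd1 more than 1 start. From the inner Hspd1 start at 55087932, 215 bases lie between the genes, while from the outer start at 55088243 the genes overlap. The stretch between 55087932 and 55088148 holds an unbroken run of 4 alternating heat shock units, given here in capitals on the strand of Hspe1, where it covers bases 89 to 72 before the Hspe1 start. It thus lies before the inner Hspd1 start and within Hspd1 as counted from the outer one. Beside it stands a pair of units near the start of Hsph1, whose first base is at -33 from one annotated start and at -54 from another, and which lies within the gene's outermost RefSeq limits.
Hspe1: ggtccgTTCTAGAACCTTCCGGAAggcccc
Hsph1: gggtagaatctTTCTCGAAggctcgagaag
The Hspe1 stretch is chr1:55088053-55088082 on the plus strand, and the Hsph1 stretch is chr5:149636351-149636380 on the minus strand.

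Windows were found for 5 of the 10 genes, Hspd1, Hspe1, Hsph1, Dnajb1 and Hspa4. A pair of units (GAANNTTC or TTCNNGAA, each its own reverse complement) occurred in 15.1% of 32851 windows of the same length, and 3 units (GAANNTTCNNGAA or TTCNNGAANNTTC) in 0.603%. A run of 4 units (GAANNTTCNNGAANNTTC or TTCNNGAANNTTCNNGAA, which contain the shorter words) occurred in 8 windows (0.0244%), among them those of Hspd1, Hspe1 and of Chordc1, an HSP90 partner. Hsph1 also had 3 units within the 50 bases after an annotated start, and Dnajb1 and Hspa4 had no pair in their windows. The half-site TGCAAT, part of the element that CHOP binds with its partners, or its reverse complement ATTGCA, was in 8.40% of all windows. It was in the windows of Hspd1 and Hspe1, which overlap and hold the same copy of it. The ATF4 core TGATGNAA (reverse complement TTNCATCA) was in none of the 5 genes' windows and in 3.97% of all. A match describes the letters in the window and is not evidence of binding.

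The summed share of the 10 genes overlapped between the groups. Together the 10 genes took 1.77 to 1.83% of all counts in control libraries and 1.79 to 1.82% in RGX-104 libraries. Hsp90ab1 alone made up more than the other 9 together, which took 0.826 to 0.848% in control and 0.819 to 0.857% in RGX-104. In these bulk samples, fewer cells of a type and less RNA per cell cannot be told apart. The libraries read the ends of transcripts, so a transcript's length does not enter its count and CPM were not divided by length. In CPM over all 8 libraries the order was Hsp90ab1, Hsp90aa1, Hspd1, Hspe1, Hspa8, Hspa9, Hspa4, Hsph1, Dnajb1 and Hsf1. Among neighbours in that order, the ranges of Hspe1 and Hspa8, of Hspa8 and Hspa9, and of Hspa9 and Hspa4 overlapped. Hspe1 was nevertheless above Hspa8 in 8 of 8 libraries, Hspa8 above Hspa9 in 6 and Hspa9 above Hspa4 in 7. The transcript ends of Hspe1 and Hspa8 match other genes, as described below, so the places of these genes in the order are uncertain.

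**Figure D1:**
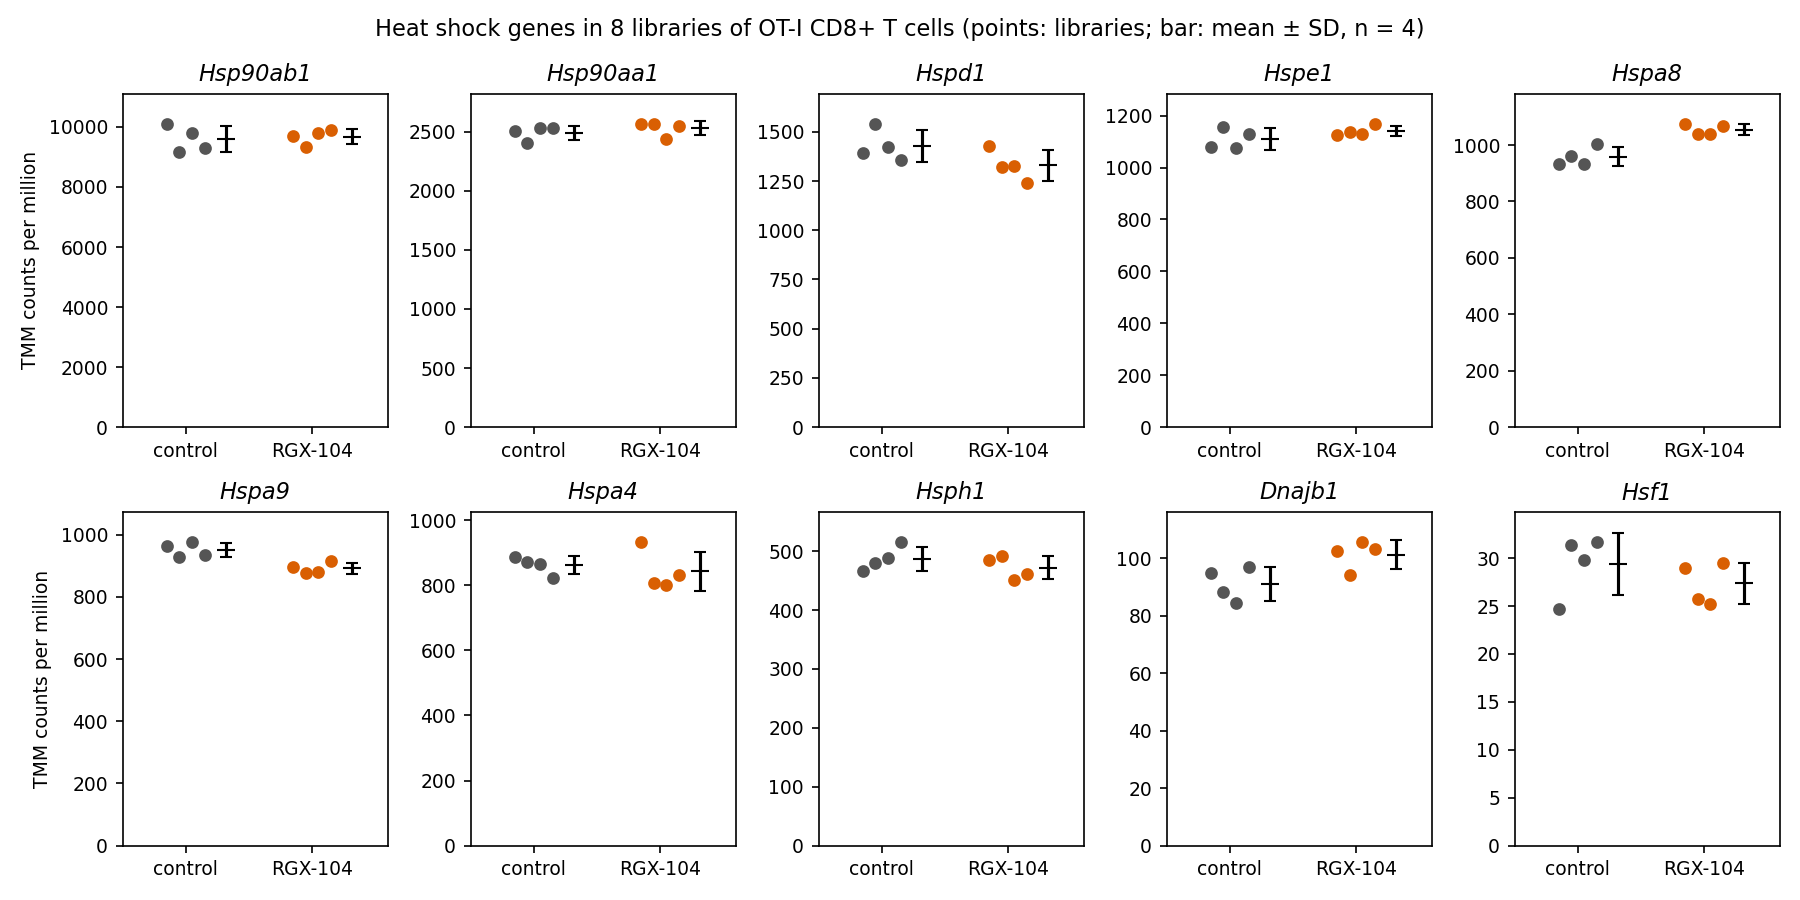
TMM-scaled CPM of the 10 heat shock genes (vertical axes from 0, a scale for each gene) in 4 control and 4 RGX-104 libraries. Points are libraries in the order of their replicate numbers and the bar beside them is the mean ± SD (n = 4). Only Hspa8 and Hspa9 have groups that do not overlap.

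No heat shock gene of the 10 passed the test over all genes. edgeR called 0 of 10 higher and 0 lower, where 2.66% of all tested genes were called, and 4 of 10 had an unadjusted p under 0.05, against 13.8% of all tested genes. DESeq2 and limma-voom each called 1, Hspa8. The groups' libraries did not overlap in 2 of the 10, Hspa8 and Hspa9, against 8.20% of all tested genes. Log2 fold changes lay between -0.10 and 0.15, with 5 above and 5 below 0 and a median of -0.01. The 4 with the smallest p were Hspa8 and its cochaperone Dnajb1, both with higher means in RGX-104, and the mitochondrial Hspa9 and Hspd1, both with lower means.

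**Figure D2:**
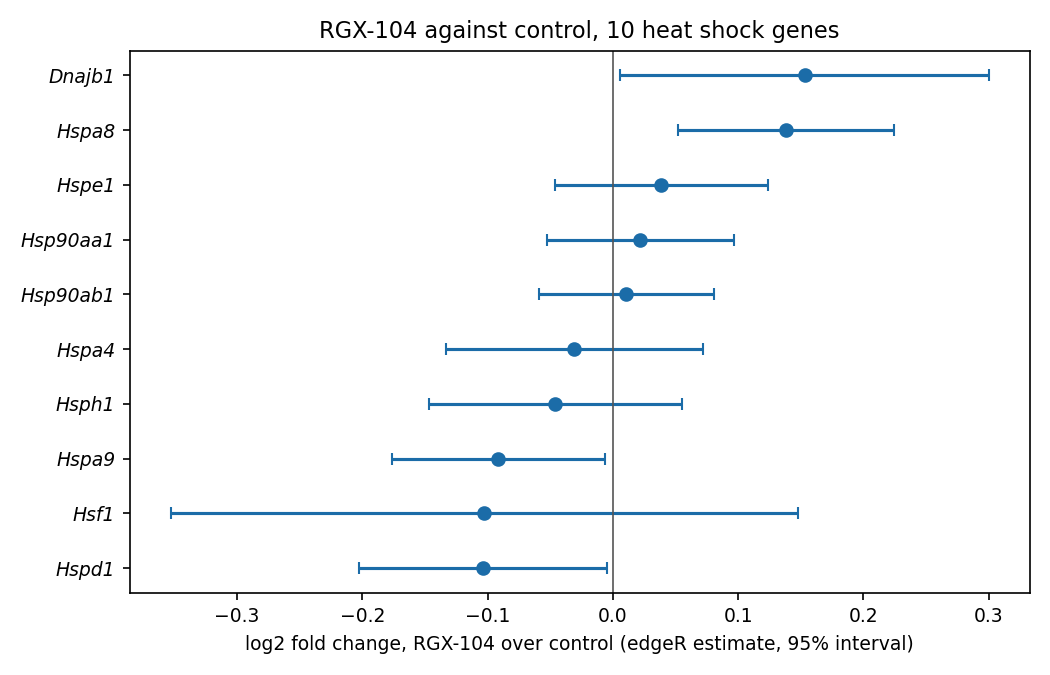
Log2 fold change of RGX-104 over control (horizontal axis) for the 10 heat shock genes with its 95% interval from edgeR's quasi-likelihood fit. Intervals of Hspa8 and Dnajb1 lie above 0, those of Hspa9 and Hspd1 below 0 and the other 6 include 0. No gene passed an adjusted p of 0.05 with edgeR.

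The cytosolic HSP70 machine is an ATP-driven clamp on unfolded protein. Hspa8 (chromosome 9, 40801276 to 40805202), the HSP70 that cells make at all times, was at 934, 961, 933 and 1005 CPM in control replicates 1 to 4. In RGX-104 replicates 5 to 8 it was at 1075, 1038, 1038 and 1067 CPM. Each RGX-104 library was thus above the highest control, and the gap between the groups, from 1005 to 1038, was narrow. The log2 fold change was 0.14 ± 0.04 (± SE; 95% interval 0.05 to 0.22), a difference of 3.66 to 16.8%, with an adjusted p of 0.0891 in edgeR, 0.0147 in DESeq2 and 0.0418 in limma-voom. Whether Hspa8 is called therefore depended on the tool, while its direction and size did not. The last 300 bases of its transcript match 8 other genes of GENCODE M21 at 95% identity or more over at least 100 bases, and none of those symbols is in the table, so reads that fit several places make its level uncertain.

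Dnajb1 (chromosome 8, 83608175 to 83612653) is the J-domain protein that hands clients to HSP70 and one of the genes HSF1 induces most. It was at 94.9, 88.1, 84.3 and 97.0 CPM in control and at 102, 94.1, 106 and 103 CPM in RGX-104. Of the RGX-104 libraries 3 lay above all controls, and replicate 6 lay within the control range. The log2 fold change was 0.15 ± 0.07 (95% interval 0.01 to 0.30, adjusted p = 0.338 by edgeR). Dnajb1 and Hspa8 differed by about the same factor, so the count ratio of Hspa8 to Dnajb1 stayed at 9.85 to 11.1 in control and 9.84 to 11.0 in RGX-104.

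Hsph1 and Hspa4 are large relatives of HSP70 that act as its nucleotide exchange factors and reload the clamp with ATP. Hsph1 (chromosome 5, 149616843 to 149636498) was at 467, 480, 488 and 515 CPM in control and 484, 492, 451 and 462 CPM in RGX-104. Its groups overlapped, with a log2 fold change of -0.05 ± 0.05 (95% interval -0.15 to 0.05, adjusted p = 0.745 by edgeR). Hspa4 (chromosome 11, 53259814 to 53300479) was at 887, 871, 864 and 822 CPM in control and 932, 808, 800 and 830 CPM in RGX-104. Replicate 5 was above all controls, while replicates 6 and 7 were below all of them. Its log2 fold change was -0.03 ± 0.05 (adjusted p = 0.851).

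Relative to its exchange factors, Hspa8 counts stood higher in RGX-104 libraries on average. The ratio of Hspa8 to Hsph1 counts, which no scaling of the libraries can alter, was 1.91 to 2.00 in control and 2.11 to 2.31 in RGX-104 libraries, without overlap. The ratio of Hspa8 to Hspa4 was 1.05 to 1.22 in control and 1.15 to 1.30 in RGX-104, with overlap. Both ratios were chosen after the values were seen and were not tested. The heat-inducible HSP70 genes Hspa1a and Hspa1b, the most direct readout of a heat shock response, were listed at 0 in all libraries. Each of these symbols stands 3 more times in the table with a number appended, also at 0, so the pair is not read as unexpressed.

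HSP90 holds kinases, hormone receptors and other signalling proteins in a form ready for activation. Hsp90ab1 (chromosome 17, 45567778 to 45573261), the constitutive form, was at 10103, 9181, 9810 and 9302 CPM in control. In RGX-104 it was at 9693, 9316, 9784 and 9891 CPM, inside the control range in all 4 libraries. It stood above 99.96% of tested genes, and its log2 fold change was 0.01 ± 0.03 (95% interval -0.06 to 0.08, or -4.03 to 5.77%; adjusted p = 0.927 by edgeR). The sign of so small a value was not stable: it ran from -0.01 to 0.04 when single libraries were left out.

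Hsp90aa1 (chromosome 12, 110691036 to 110696395), the stress-inducible form, was at 2508, 2404, 2529 and 2528 CPM in control and 2566, 2566, 2442 and 2546 CPM in RGX-104. In each group 1 library lay well below the other 3, replicate 2 in control and replicate 7 in RGX-104. The log2 fold change was 0.02 ± 0.04 (95% interval -0.05 to 0.10, or -3.59 to 6.92%; adjusted p = 0.855). Counts of Hsp90ab1 were 3.68 to 4.03 times those of Hsp90aa1 in control and 3.63 to 4.01 times in RGX-104. The ranges of this balance of constitutive and inducible HSP90 overlapped, with RGX-104 replicate 6 below all controls. The last 300 bases of neither transcript matched another gene under the settings given for Hspa8.

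Mitochondrial chaperones receive proteins as they cross the inner membrane. Hspa9 (mortalin), the mitochondrial HSP70 that pulls them in, was at 964, 927, 975 and 936 CPM in control. It was at 896, 876, 880 and 916 CPM in RGX-104, below the lowest control in each library. The log2 fold change was -0.09 ± 0.04 (95% interval -0.18 to -0.0065, or -11.5 to -0.447%), with an adjusted p of 0.320 in edgeR, so the difference was small and not called. Hspa8 and Hspa9, HSP70 proteins of different compartments, stood at a count ratio of 0.956 to 1.07 in control and 1.16 to 1.20 in RGX-104, a ratio chosen after the values were seen.

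Hspd1 (chromosome 1, 55077833 to 55088243) encodes HSP60, the folding barrel of the matrix. Its levels were 1390, 1540, 1422 and 1359 CPM in control and 1429, 1319, 1328 and 1241 CPM in RGX-104. Replicates 6, 7 and 8 were below all controls, and replicate 5 lay within their range. The log2 fold change was -0.10 ± 0.05 (95% interval -0.20 to -0.0045, adjusted p = 0.336 by edgeR). Entries whose symbol begins with mt- made up 4.59 to 4.95% of counts in control and 4.84, 4.52, 4.05 and 3.99% in RGX-104 replicates 5 to 8, and their part in the Hspd1 values was not tested.

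Hspe1 (chromosome 1, 55088148 to 55091317) encodes HSP10, the lid of the HSP60 barrel. It was at 1078, 1158, 1075 and 1130 CPM in control and 1124, 1138, 1130 and 1169 CPM in RGX-104. The ranges overlapped, and the log2 fold change was 0.04 ± 0.04 (95% interval -0.05 to 0.12, adjusted p = 0.749 by edgeR). Although they share the stretch of DNA shown above, the point estimates of Hspd1 and Hspe1 had opposite signs. Their count ratio was 1.20 to 1.33 in control and 1.06 to 1.27 in RGX-104, with overlap, and the difference between the pair was not tested. Exons of the pair overlap by 112 bp at their starts, on opposite strands, away from the transcript ends that were read. The last 300 bases of Hspe1 match 4 other genes of GENCODE M21, so its level is uncertain in the way given for Hspa8.

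Hsf1 (chromosome 15, 76477362 to 76501155) had the lowest level of the 10. It was at 24.7, 31.3, 29.8 and 31.6 CPM in control and 29.0, 25.7, 25.2 and 29.5 CPM in RGX-104. All RGX-104 libraries lay within the control range, whose lower end was set by replicate 1 alone. They were below control replicates 2, 3 and 4. The mean count of Hsf1, 418, was the lowest and its interval the widest of the 10. Its log2 fold change was -0.10 ± 0.12 (95% interval -0.35 to 0.15, or -21.7 to 10.8%, adjusted p = 0.775 by edgeR). Without control replicate 1 it was -0.18 (adjusted p = 0.593 by edgeR). HSF1 is controlled mainly as a protein, which was not measured. Its relative Hsf2 was at 65.9 to 71.4 CPM in control and 54.9 to 65.5 CPM in RGX-104, without overlap (log2 fold change -0.18 ± 0.08, adjusted p = 0.327).

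The wider list of heat-inducible HSF1 targets held 24 genes, of which 21 were tested, and Hspa1a, Hspa1b and Hspa4l were listed at 0. edgeR called none of the 21, 5 had an unadjusted p under 0.05 (against 13.8% of all tested genes), 10 had a positive and 11 a negative log2 fold change, and the median was -0.01. DESeq2 called Hspa8 of this list higher. Chordc1, which shares the run of 4 units, had 240.0 ± 10.4 CPM in control and 254 ± 12.6 in RGX-104, a log2 fold change of 0.08 (adjusted p = 0.550).

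Partners of the cytosolic chaperones were not called by edgeR. Their lists also hold genes described above: Hspa8, Hspa4 and Hsph1 (HSP70), Dnajb1 (J-domain), and Hsp90aa1 and Hsp90ab1 (HSP90). Of 13 tested genes of the HSP70 system 0 were called, with a median log2 fold change of -0.03. In that list 2 had an unadjusted p under 0.05, Hspa8 among them. Of 14 tested J-domain proteins 0 were called (median 0.01), and the 1 with an unadjusted p under 0.05 was Dnajb1. Among 17 tested genes of the HSP90 system 0 were called and 2 had an unadjusted p under 0.05 (median 0.03). Of all tested genes, 2.66% were called and 13.8% had an unadjusted p under 0.05. Cacybp, which binds HSP90 and a ubiquitin ligase, had the smallest p of that list. It was at 434 ± 8.57 CPM in control and 477 ± 17.6 in RGX-104, without overlap (log2 fold change 0.14 ± 0.05, adjusted p = 0.153 by edgeR and 0.0394 by DESeq2). Bag6 and Fkbp5 were listed at 0 in all libraries.

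The chaperonin TRiC, a ring that folds actin and tubulin, had the narrowest spread of log2 fold changes among the lists. All 8 of its subunits were tested and their log2 fold changes lay between -0.04 and 0.05, with none called by edgeR and none at an unadjusted p under 0.05. Its subunit with the smallest p, Cct6a, had 921 ± 36.6 CPM in control and 955 ± 20.5 in RGX-104 (adjusted p = 0.643). Prefoldin, which delivers clients to TRiC, likewise had 0 of 5 tested subunits called and 0 at an unadjusted p under 0.05, with Pfdn1 at 0.09 (adjusted p = 0.651). DESeq2 and limma-voom called no gene of these 2 lists. Of 5 tested genes listed as small heat shock proteins edgeR called none. In that list 1 had an unadjusted p under 0.05, Hspb11, at 10.5 ± 2.55 and 15.5 ± 3.39 CPM (adjusted p = 0.179). Whether the protein of Hspb11 is a chaperone of that family was not examined.

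**Figure D3:**
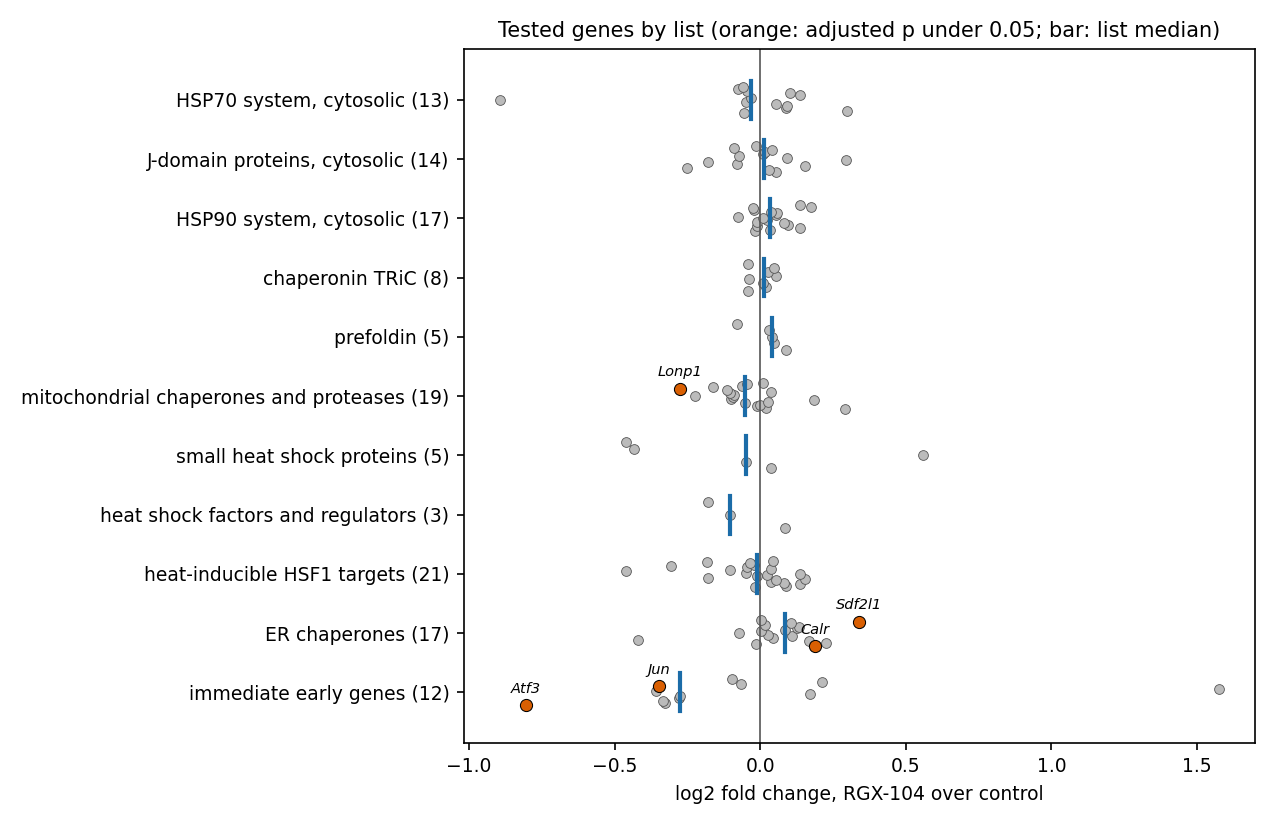
Log2 fold change of RGX-104 over control (horizontal axis) for the tested genes of each list, with the number tested in brackets. Orange points passed an adjusted p of 0.05 in edgeR, grey points did not, and the blue bar is the list's median. The called genes are Lonp1, Calr, Sdf2l1, Jun and Atf3, and none belongs to the cytosolic chaperone lists.

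Of the mitochondrial list, which includes Hspa9, Hspd1 and Hspe1, edgeR called Lonp1. Lonp1 (chromosome 17, 56614297 to 56626903), a protease that degrades misfolded and oxidised matrix proteins and also has chaperone activity, was at 211, 197, 206 and 228 CPM in control. It was at 164, 175, 191 and 165 CPM in RGX-104, below the lowest control in each library. Lonp1 fell by 0.28 ± 0.06 on the log2 scale (adjusted p = 0.0165 by edgeR), and the call was lost without control replicate 4 (adjusted p = 0.0741) or without RGX-104 replicate 5 (0.0580), 6 (0.0540) or 8 (0.0753). Of the 19 tested mitochondrial chaperones and proteases it was the only one called, where 1.78% of all tested genes were called lower. In that list 13 had a negative log2 fold change, against 6010 of all 12162 tested genes, and the median was -0.05. The protease subunit Afg3l2 stood on the other side, with 55.1 ± 2.75 CPM in control and 67.4 ± 5.29 in RGX-104 (log2 fold change 0.29 ± 0.08, adjusted p = 0.0758 by edgeR; called by DESeq2 and by edgeR without RGX-104 replicate 6).

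Chaperones of the endoplasmic reticulum had a median above 0, where that of the mitochondrial list was below 0. Of 17 tested, 2 rose and none fell, 14 had a positive log2 fold change and the median was 0.09. Among all 12162 tested genes 0.888% were called higher, and 6152 had a positive and 6010 a negative log2 fold change. Calr, a lectin chaperone for glycoproteins, rose by 0.19 ± 0.04 on the log2 scale from 1168 ± 41.0 to 1330 ± 19.6 CPM (adjusted p = 0.00954 by edgeR). Sdf2l1, a partner of the HSP70 of that compartment, rose by 0.34 ± 0.09 (adjusted p = 0.0393), and its call was lost in 6 of 8 fits that left out 1 library, all but those without control replicate 4 or RGX-104 replicate 7 (adjusted p 0.0418 to 0.136 over the 8). The compartment's HSP70, Hspa5, was at 2139 ± 19.3 and 2032 ± 60.7 CPM, and its HSP90, Hsp90b1, at 1183 ± 69.0 and 1203 ± 109 CPM, neither called. The difference between the lists was not tested.

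Immediate early genes, which many stresses and receptor signals induce within minutes, included a stress factor, Atf3, with a larger log2 fold change than any of the 10 heat shock genes. Of 12 tested, 2 fell and none rose, where 1.78% of all tested genes were called lower. In that list 3 had a positive and 9 a negative log2 fold change, and the median was -0.28. Atf3, a transcription factor induced by ATF4 and other stress signals, fell by 0.81 ± 0.13 on the log2 scale from a mean of 36.7 to 21.0 CPM, without overlap (adjusted p = 0.000448 by edgeR), and Jun fell by 0.35 ± 0.07 from 119 ± 3.12 to 93.5 ± 9.28 CPM (adjusted p = 0.00713). Ddit3 was at 65.2 ± 3.22 and 16.7 ± 2.72 CPM, a log2 fold change of -1.97 ± 0.12. Beside these values, the lowest interval end among the 10 heat shock genes was -0.353 (Hsf1) and the highest 0.300 (Dnajb1) on the log2 scale.

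**Figure D4:**
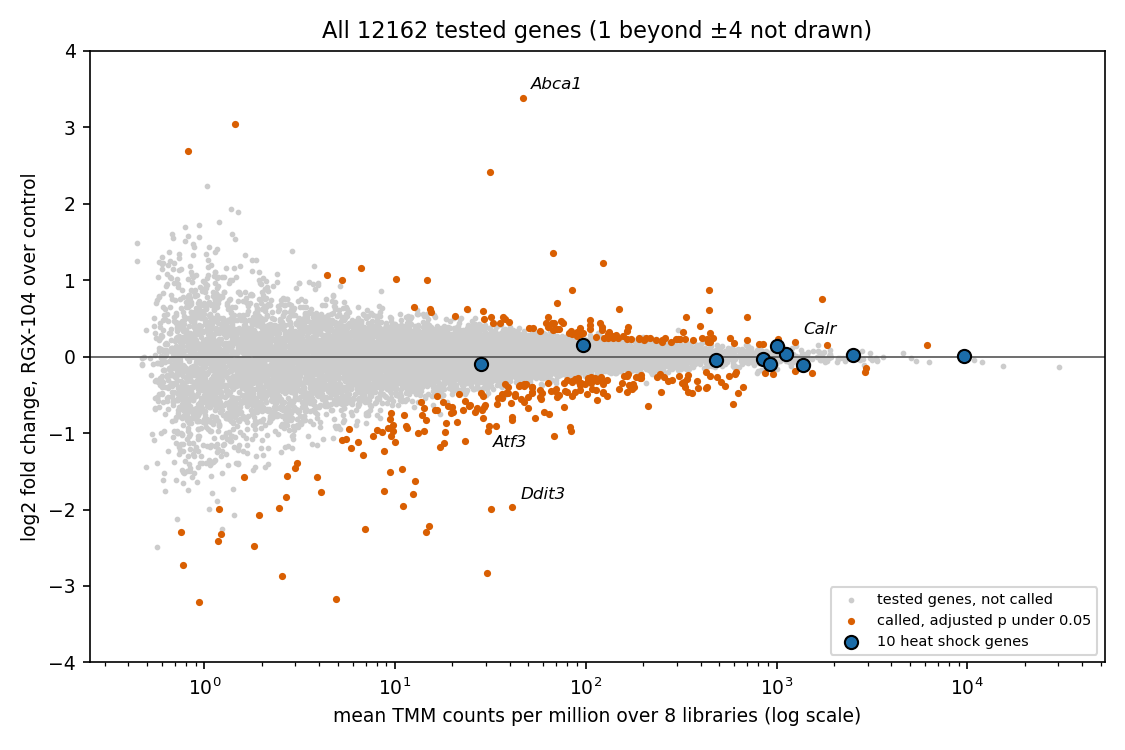
Log2 fold change of RGX-104 over control (vertical axis) against mean CPM over 8 libraries (horizontal log axis) for the 12162 tested genes, of which 1 lies beyond the vertical limits of 4 and is not drawn. The 10 heat shock genes (blue) lie near 0 and most of them far to the right, while Abca1 and Ddit3 lie far from 0 and Calr just above it.

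Genes whose level followed each heat shock gene most closely over the 8 libraries were sought among 9561 other tested genes whose counts averaged 50 or more, by Pearson's r of log2(CPM + 1). So many candidates over 8 libraries, which share depth and group, give high values by the search alone, so r is a description. For Hspa8 the closest were Bloc1s4 (0.98) and Ndufaf4 (0.96), of which Ndufaf4, an assembly factor of respiratory complex I, rose by 0.21 (adjusted p = 0.0335 by edgeR; 0.0375 to 0.107 with single libraries left out, with the call kept only without control replicate 4). For Hspa9 they were Cox10 (0.96) and Atf5 (0.95). Atf5, a transcription factor of the mitochondrial stress response, was at 18.5, 13.8, 20.1 and 18.2 CPM in control and 8.21, 8.69, 7.43 and 11.0 CPM in RGX-104, and fell by 1.00 ± 0.18 on the log2 scale (adjusted p = 0.00135). For Hspd1 they were Rbm6 (0.97) and Prrc2b (0.96), for Hspe1 Orc4 (0.95) and Elovl5 (0.94), and for Dnajb1 Snx8 (0.95) and 4930524J08Rik (0.95). For Hspa4 they were Rbm48 (0.97) and Casp8ap2 (0.96), for Hsph1 Dgat2 (0.97) and Cep63 (0.94), for Hsp90aa1 Prdm16 (0.99) and Osbpl7 (0.95), for Hsp90ab1 Pex16 (0.99) and Psmd4 (0.96), and for Hsf1 Saysd1 (0.99) and Rab12 (0.93). No heat shock gene was among the closest of another. With so few kept of 9561, this does not tell whether the heat shock genes vary together. Between pairs of them r ran from -0.83 (Hspa8 and Hspa9) to 0.81 (Hspa8 and Dnajb1).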

How the data were processed

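The authors deposited whole-number read counts per gene for 8 libraries made with a Lexogen 3′ FWD kit, per the labels' protocols; the unit is raw counts, not normalised. The submitters' processing notes list GRCm38 and the tools DESeq2 1.4, STAR 2.7.8a and R 4.1.0. How reads were counted, with what strand setting, molecular identifiers or rule for reads that fit several places, was not given in the sources used here, so counting precision covers counting error only (0.265% of the count for the most abundant heat shock gene, 4.89% for the least).

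The test was the quasi-likelihood test of edgeR 4.0.16 (R 4.3.3), after filterByExpr and TMM scaling, with glmQLFit, glmQLFTest (two-sided), group as the only term, Benjamini-Hochberg adjustment over 12162 genes, threshold 0.05. A standard error is the log2 fold change over the root of F, and intervals are 95%. The biological coefficient of variation was 14.5%. Chi-square values between libraries of a group were 6.34 to 9.60 times those of counting noise. The scripts were tested on simulated data. Alternatives were other scalings and filters, DESeq2 1.42.0, limma-voom (limma 3.58.1), robust fitting and leaving out each library. Columns of other series: 0.

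Heat shock genes and lists were chosen with earlier results of these data known. From each list the text names up to 3 called genes, or the tested gene of smallest p; Chordc1, Afg3l2, Hspa5, Hsp90b1 and all ratios were chosen after their values were seen. Results of some list genes are not reported here. Coordinates (1-based) and promoter windows are RefSeq's for GRCm38.p6, and exon overlaps and transcript ends are from GENCODE M21. Markers of B cells, neutrophils, NK cells, CD4 and regulatory T cells, and erythroid cells and platelets summed to at most 2.35, 7.80, 0.381, 6.14 and 122 CPM in any library, with no called gene.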

Additional observations from a re-analysis of the deposited data

Results flagged for a closer look

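In 106 groups of 4 libraries a library far from the other 3 was sought, and 7 were found; chance gives about 1 in 20. For Hsp90aa1, control replicate 2 (2404 CPM, others 2508 to 2529) and RGX-104 replicate 7 (2442 CPM, others 2546 to 2566) were each the lowest of their group. Replicate 7 was also far below the others for Prdm16 (12.3 CPM, others 16.5 to 17.0) and control replicate 2 for Osbpl7 (14.9 CPM, others 19.1 to 19.7), the genes picked for likeness to Hsp90aa1. RGX-104 replicate 6 was low for Afg3l2 (59.5 CPM, others 69.6 to 70.5). RGX-104 replicate 5 was high for Casp8ap2 (278 CPM, others 234 to 240) and control replicate 3 for Cox10 (155 CPM, others 147 to 148).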

How the results depend on the processing

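Of 160 values (10 heat shock genes under 16 alternatives), 156 kept their direction and side of the threshold. Hspa8 passed the threshold with DESeq2 and limma-voom (1 heat shock gene higher with each, 0 lower), and Hsp90ab1 changed sign without control replicate 2 (-0.0094) and without control replicate 4 (-0.0031), with a range of -0.0094 to 0.037 as single libraries were left out. Leaving out single libraries gave 0 called heat shock genes throughout, with an adjusted p for Hspa8 from 0.0588 to 0.244. Scaling moved the median of all genes by less than 0.1 on the log2 scale (-0.004 to 0.007). Genes called higher over the table were 192 with DESeq2 and 57 to 93 with single libraries left out, against 108. Of the wider lists, 2 genes were called higher, but 1 without the filter on low counts, 5 with DESeq2 and 1 to 2 with single libraries left out; 3 were called lower, but 2 to 4 with single libraries left out, 5 with at least 10 counts required in all 8 libraries and 5 with DESeq2. Pex16 (-0.01 to 0.14) and Psmd4 (-0.021 to 0.063) changed sign as single libraries were left out (Pex16 -0.0080; Psmd4 -0.0086 and -0.0013 also). The cause of these changes was not tested. No paired analysis was made, because the labels number the samples in 1 run and do not tell whether control and RGX-104 libraries were paired. Of the 10 heat shock genes Hsf1 had the lowest mean count, 418, and the largest counting error, 4.89% of the count. Its SD between libraries was larger, at 11.0% of the mean in control and 7.97% in RGX-104.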
